A study of Homo sapiens with 3 samples.

Results

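Translation initiation and elongation factors are the soluble proteins that bring ribosome, mRNA and aminoacyl-tRNA together. The set holds 56 genes, represented by 65 of the 24460 probes on the array, whose annotation holds 17621 gene symbols. A probe was a member if its gene symbol in the platform annotation begins with EIF or EEF and a digit, and 7 probes of kinases and binding proteins were left out. This gave 64 probes, and the probe of EIF4H, which the platform carries as WBSCR1, was added because the rule names it. Of the 65, 61 probes stand for 52 translation factor genes, and 4 carry the older symbols EIF2C1 to EIF2C4 of the argonaute genes AGO1 to AGO4, which act in small RNA silencing. The argonaute probes are kept apart below. The 64 probes were chosen by symbol and not by measured value. EEF1B2 and EIF4H were known to be outlying from earlier results of these arrays. EIF4H was added because it was named as such a spot, so its differences say nothing about the set. The 2 probes of EIF2D, also under an older symbol, were not added.

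The cells were HepG2, an established human hepatocellular carcinoma line, and all 3 groups were collected 72 h after transfection with 10 nM siRNA. One group received a negative control siRNA, one the villin siRNA and one the PTK7 siRNA. Villin, encoded by VIL1, bundles actin in microvilli, and PTK7 is a catalytically inactive receptor of Wnt and planar polarity signalling. The labels list 2 villin siRNAs and 1 PTK7 siRNA and do not say which villin siRNA was used for the array. Each group had 1 one-colour array labelled with Cy5, so no difference has a replicate check, no test was run, and the values hold for these 3 arrays.

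Initiation starts when eIF2 delivers the initiator tRNA to the small ribosomal subunit, which eIF3, eIF1 and eIF1A hold ready. The cap-binding eIF4E, the scaffold eIF4G and the helicase eIF4A bring in the mRNA, and eIF5 and eIF5B complete start-site selection and subunit joining. In elongation eEF1A carries aminoacyl-tRNA to the ribosome, the eEF1B complex recharges eEF1A with GTP, and eEF2 moves the ribosome along the mRNA. Hepatocytes and cells derived from them export large amounts of plasma protein and so make heavy use of this machinery.

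Between 90.2% and 92.1% of all probes were above the blank spots on the 3 arrays. VIL1 had deposited intensities of 924, 129 and 1084 on the control, villin and PTK7 arrays, in a table where each array has a median of 25, and its normalised value was 5.67-fold lower on the villin array than on the control array. The PTK7 probe lay at 14, 25 and 12, and its normalised log2 difference from the control array was -0.05. The last array is therefore called the PTK7-labelled array, since this probe did not show the knockdown against the control array. All 10 hepatocyte markers were above the median level on each array, with summed deposited intensities of 68158 to 82242, against 539 to 837 for immune, 107 to 159 for fibroblast and stellate and 47 to 55 for endothelial markers. The PTK7-labelled array's median log2 difference from the control array over all detected probes was -0.01, as was that of the villin array. Quantile normalisation holds such medians near 0, so they do not show that the arrays are alike.

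The mRNAs of several elongation factors and initiation factor subunits are known to begin with a terminal oligopyrimidine tract, a C followed by a run of C and T that places their translation under the mTOR pathway. The bases around the RefSeq start of 8 factor genes (GRCh38.p14) are shown because these genes either have such a tract or are described below. Each line runs 5′ to 3′ on the strand of the gene, with 20 bases before the annotated start, and capitals mark the tract where one begins exactly at that start.
EEF1B2, chr2:206159875-206159914, + strand: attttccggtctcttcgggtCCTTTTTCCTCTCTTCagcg
EEF1A1, chr6:73521013-73521052, - strand: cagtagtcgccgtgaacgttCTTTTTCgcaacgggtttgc
EEF2, chr19:3985444-3985483, - strand: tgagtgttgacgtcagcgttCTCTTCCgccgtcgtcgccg
EIF4B, chr12:53006436-53006475, + strand: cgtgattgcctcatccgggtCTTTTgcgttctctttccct
EIF4A2, chr3:186783557-186783596, + strand: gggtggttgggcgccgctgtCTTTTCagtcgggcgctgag
EIF3F, chr11:7987317-7987356, + strand: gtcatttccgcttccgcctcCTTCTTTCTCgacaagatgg
EIF4H, chr7:74174336-74174375, + strand: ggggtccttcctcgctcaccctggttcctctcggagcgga
EIF3I, chr1:32222387-32222426, + strand: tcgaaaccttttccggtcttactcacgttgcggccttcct

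The tract was searched only on the strand of the gene and only at the annotated start, as a C followed by at least 4 bases that are each C or T. It was found for 11 of the 44 factor genes with a start in the RefSeq table (25%), against 1404 of 27305 genes in that table (5.14%). The 11 were EEF1A1, EEF1B2, EEF2, EIF2A, EIF2S3, EIF3D, EIF3F, EIF3K, EIF3M, EIF4A2 and EIF4B. EEF1B2 has a second start upstream with no tract, at chr2:206159589-206159628 (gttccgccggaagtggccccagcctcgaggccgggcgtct). Annotated starts can lie some bases from those used in a given cell. In the comparison of the villin array with the control array, the 13 detected probes of the tract genes had a median log2 difference of 0.07 (-0.48 to 1.87) and the 37 of the other genes one of -0.02 (-0.49 to 0.60). For the PTK7-labelled array these medians were -0.06 and -0.09. The ranges overlapped in both comparisons.

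Most factor transcripts differed little between the arrays. Differences are given as normalised log2 values after background correction (normexp) with an offset of 50 and quantile normalisation, which shrinks the differences of dim probes. A probe was counted as apart at 1.5-fold, a log2 difference of 0.585. All member probes but that of EIF4E3 were above background on every array. EIF4E3 was not above background on the control array, and its signal there allows only bounds of at least 1.05-fold higher on the villin array and at least 1.02-fold higher on the PTK7-labelled array.

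Between the villin and control arrays, 3 of 64 detected member probes were at least 1.5-fold apart, all of them higher on the villin array: EEF1B2, EIF4A2 and EIF3I. Over all 21723 probes detected on both arrays, 1.87% were that far apart, 1.45% higher and 0.419% lower. Most members are bright, and among the 10683 probes at or above the median level on both arrays 3.54% were that far apart, against 2 of the 53 members there. The median log2 difference of the members was -0.01, as it was for all probes, and 30 members (46.9%) lay above 0, against 45.2% of all probes. After scaling to the surroundings of each spot, described below, the median was 0.02 and 36 members (56.25%) lay above 0. Over all probes these values were -0.01 and 46.0%. The members nearest below the threshold were EIF3H (0.50) and EIF3J (-0.49).

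Between the PTK7-labelled array and the control array, 3 of 64 member probes were at least 1.5-fold apart, EEF1B2 higher and EIF4H and EIF3E lower. Over all 21488 detected probes 1.03% were that far apart, 0.791% higher and 0.237% lower, and 1.92% of those at or above the median level, against 2 of the 53 members there. EIF4H, added by name as an outlying spot, counts in both the 3 and the 2. The median of the members was -0.09, against -0.01 for all probes, and 24 members (37.5%) lay above 0, against 47.2% of all probes. After the same scaling the median was -0.02 and 30 members lay above 0. Nearest below the threshold were EIF3A (-0.47) and EIF2S3 (-0.43). Both comparisons share the control array, so EEF1B2 appears in both through the same control value.

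Between the villin array and the PTK7-labelled array, 1 of 65 member probes was 1.5-fold apart, EIF4H, against 0.579% of 21760 probes, 0.427% higher and 0.152% lower, and 1.06% of those at or above the median level. At 2-fold, EEF1B2 was the single member apart in the comparisons of the villin and the PTK7-labelled arrays with the control array, against 0.281% and 0.116% of all probes. No member was 2-fold apart between the villin and PTK7-labelled arrays, against 0.046% of all probes. EIF4H, the 1 call at 1.5-fold there, was added by name, and no probe chosen by symbol was 1.5-fold apart. In this comparison 41 of the 65 members (63.1%) lay above 0, higher on the villin array, against 47.9% of all probes, with a median of 0.06. After the same scaling 43 members (66.2%) lay above 0, against 48.8% of all probes, with a median of 0.05. Among the 16 probes of eIF3, 13 lay above 0, with a median of 0.11, and 11 after the same scaling. EIF2S3, the gamma subunit of eIF2 that binds the initiator tRNA and GTP, was farthest apart after EIF4H, at 0.50.

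**Figure D1:**
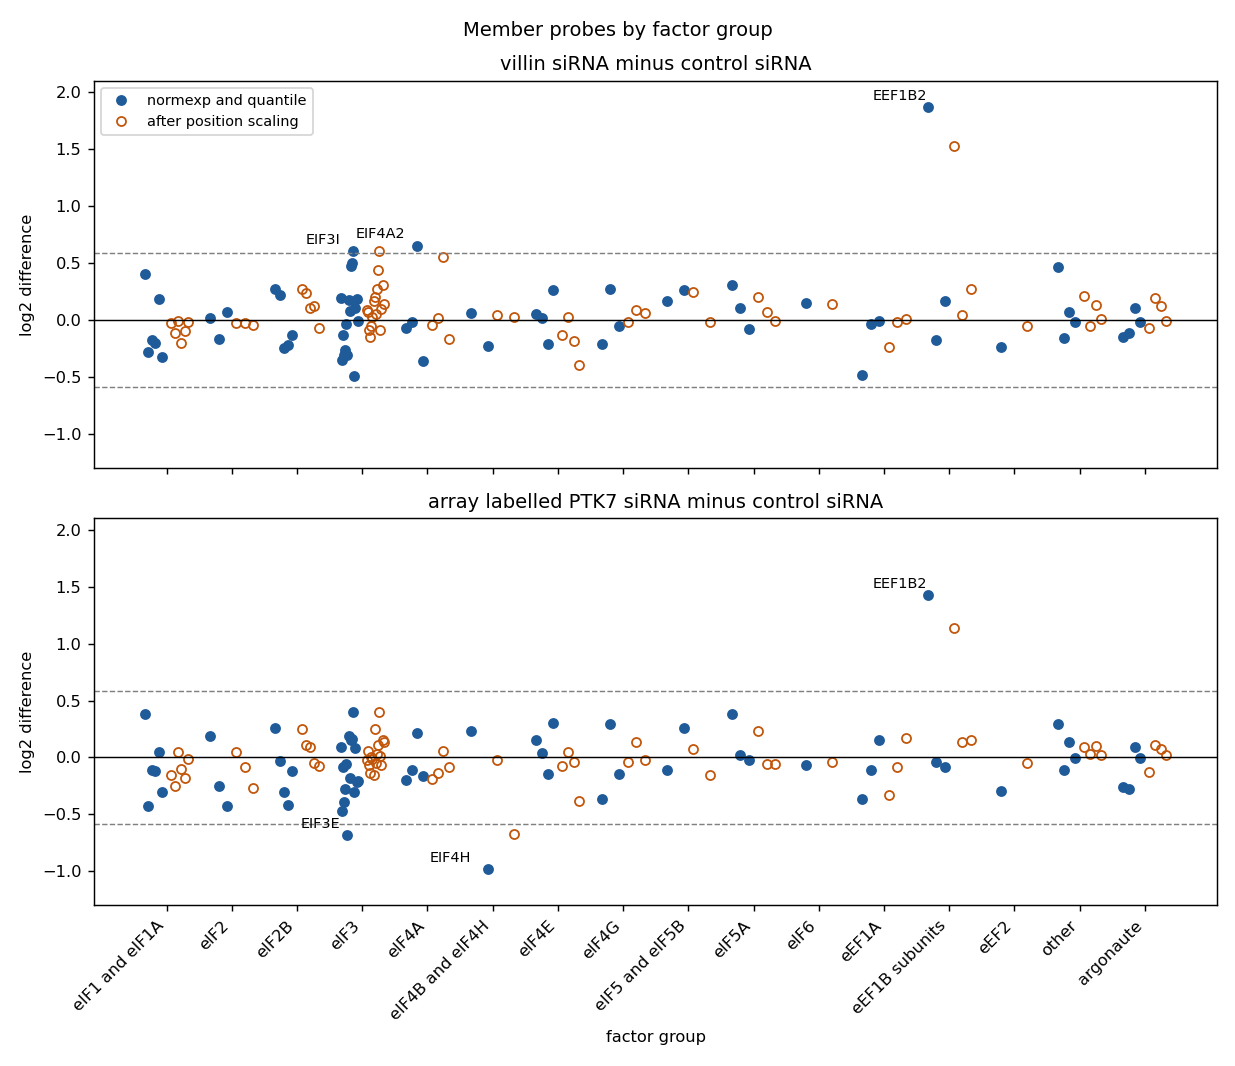
Log2 differences of the 64 member probes above background on all arrays, by factor group, for the villin array (upper panel) and the PTK7-labelled array (lower panel) against the control array. Filled points are the normalised values, open points those after scaling each array to the surroundings of each spot, and dashed lines mark 1.5-fold. EEF1B2 stands apart in both panels and EIF4H in the lower one.

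The differences of the member probes followed the position of their spots on the slide. The slide has 24 blocks of 11 rows by 104 columns. In blocks 1 to 6, 1 of 21 member probes lay above 0 on the villin array against the control array, with a median of -0.24. In blocks 19 to 24, 13 of 14 lay above 0, with a median of 0.17. For the PTK7-labelled array the counts were 1 of 21 and 12 of 14, with medians of -0.30 and 0.17. All detected probes shifted the same way but less, from -0.09 to 0.06 and from -0.10 to 0.09. Most members are bright and the offset shrinks the differences of dim probes. The shifts were not compared at like brightness, so the larger one is not shown to be particular to these factors.

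For each member the median difference of the other spots in a window of 11 columns by 5 rows within its block was taken as the local level. Across the 64 members, the difference and the local level had a Pearson r of 0.70 for the villin array and 0.76 for the PTK7-labelled array. This describes spots that share the same pair of arrays. Each array was then also scaled to the surroundings of each spot, here called position scaling. Its shifts came from log2 signal without the offset of 50, so they can be larger than the local levels, which include it. Whether a scaled value lies nearer the true difference was not tested. In the outer blocks the medians of the members after position scaling were -0.01 and 0.01 for the villin array. They were 0.00 and -0.06 for the PTK7-labelled array. Of the members, 2 remained at least 1.5-fold from the control array on the villin array (EEF1B2 and EIF3I) and 2 on the PTK7-labelled array (EEF1B2 and EIF4H), against 1.03% and 0.163% of all detected probes. EIF4H, added by name, also remained the single member apart between the villin and PTK7-labelled arrays, against 0.464%.

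**Figure D2:**
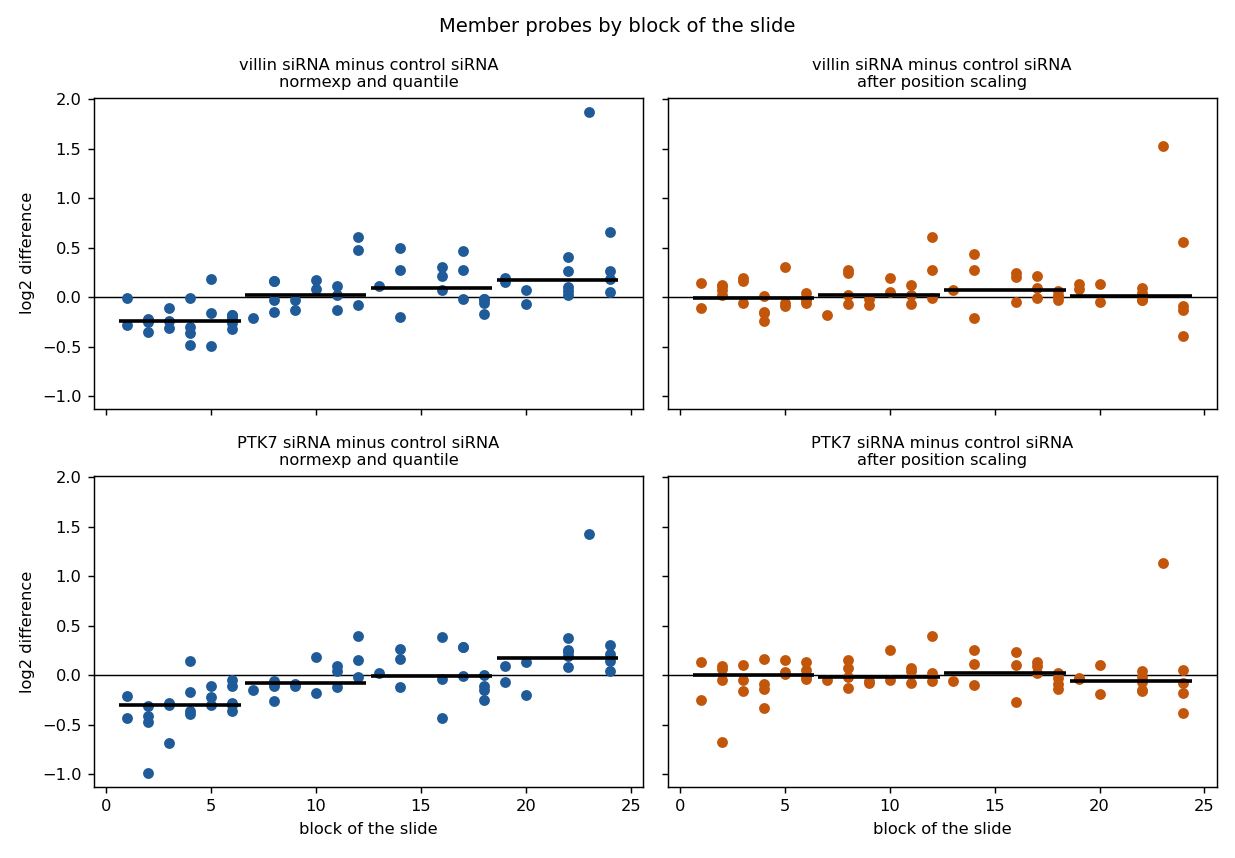
Log2 differences of the member probes from the control array (vertical axis) by block of the slide (horizontal axis), before (left) and after (right) position scaling, with the median of each 6 blocks as a bar. Before scaling the medians run from -0.24 to 0.17 (villin) and from -0.30 to 0.17 (PTK7-labelled), and afterwards all lie between -0.06 and 0.07.

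EEF1B2 encodes eEF1B alpha, a nucleotide exchange subunit that returns eEF1A to its GTP form. Its spot lies in block 23, row 10, column 13. Its spot median was 72.9 units on the control array, 280 on the villin array and 180 on the PTK7-labelled array, where the blank spots averaged 60.8, 61.7 and 61.6. The control value is the low one and lies close to the blank level, at 15.6 SDs of the blank spots, against 288 and 161 SDs on the other arrays. The deposited intensities were 10, 136 and 88.

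In the normalised values EEF1B2 was 3.65-fold higher on the villin array than in the control (a log2 difference of 1.87) and 2.68-fold higher on the PTK7-labelled array (1.42). The 27 other spots of its window had medians of 0.26 in both comparisons and reached at most 0.68 and 0.63, so no neighbouring spot differed as much. After position scaling EEF1B2 was 2.88-fold and 2.20-fold higher. The deposited values gave log2 differences of 3.77 and 3.14, since they have no offset. With the scanner's background column, the differences were 0.25 and 0.23 and no longer 1.5-fold. This column read 61.0, 237 and 134 units at the spot on the control, villin and PTK7-labelled arrays. Whether it reads a raised local background or the spot itself was not tested. EEF1B2 has 1 probe, so no second probe can be set beside it. The low control value rests on 1 spot of 1 array, and whether that spot hybridised poorly was not tested. In RNA of a whole culture, fewer cells holding a transcript and less of it per cell cannot be told apart.

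The other subunits of eEF1B lay within 1.5-fold of the control array. EEF1D, the delta exchange subunit, had deposited intensities of 6033, 4861 and 5382 on the control, villin and PTK7-labelled arrays, and log2 differences of -0.17 and -0.04 from the control array. EEF1G, the gamma subunit that anchors the complex, lay at 3353, 3618 and 3040, with differences of 0.16 and -0.08. The interquartile range of all members ran from -0.18 to 0.18 and from -0.26 to 0.15 and held these values. After position scaling EEF1D lay at 0.04 and 0.14 and EEF1G at 0.28 and 0.15, so that all 3 eEF1B probes were above 0 in both comparisons. The interquartile range of the members was then -0.05 to 0.14 and -0.08 to 0.09, and EEF1G in both comparisons and EEF1D on the PTK7-labelled array lay above it.

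EEF1A1, the main carrier of aminoacyl-tRNA, had deposited intensities of 243, 167 and 181, highest on the control array. Its log2 differences were -0.48 and -0.36, and -0.23 and -0.33 after position scaling. Both probes of EEF1A2, the isoform of muscle and neurons, were dim, with deposited intensities of 4 to 14, and lay between -0.11 and 0.15. EEF2, the translocase, lay at 43, 33 and 28, with differences of -0.24 and -0.30. After position scaling both were -0.05. With the deposited values EEF2 was at -0.62 on the PTK7-labelled array, which is past 1.5-fold. EEF1E1, a scaffold protein of the aminoacyl-tRNA synthetase complex, lay at 1284, 1734 and 1552, with differences of 0.46 and 0.29 that became 0.21 and 0.10.

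EIF4H encodes a cofactor that stimulates the helicase eIF4A. Its spot lies in block 2, row 9, column 1, at the edge of the block, so that its window holds only 18 other spots. Its deposited intensities were 1096 on the control array, 897 on the villin array and 523 on the PTK7-labelled array, where it was the low one. The normalised values were 1.98-fold lower on the PTK7-labelled array than in the control (a log2 difference of -0.98) and 1.69-fold lower than on the villin array. The villin siRNA array differed from the control array by -0.23. The other spots of the window had a median of -0.14 for the PTK7-labelled array and none was as low as EIF4H, the lowest being -0.46.

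After position scaling EIF4H was 1.59-fold lower than on the control array (-0.67) and 1.62-fold lower than on the villin array. Over the 7 other settings its difference from the control array ran from -1.25 to -0.67, so that it stayed beyond 1.5-fold in each. EIF4B, the related eIF4A cofactor, had deposited intensities of 3305, 3332 and 3592 and log2 differences of 0.06 and 0.23, or 0.04 and -0.02 after position scaling.

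**Figure D3:**
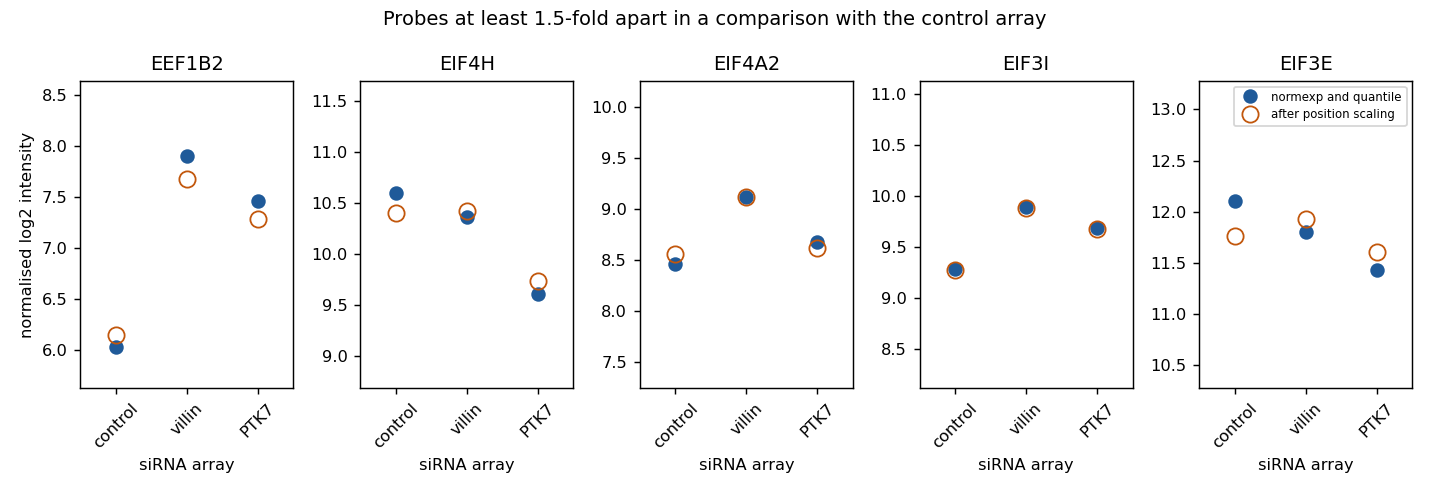
Normalised log2 intensity of the 5 factor probes at least 1.5-fold apart in a comparison with the control array, on the 3 arrays, before (filled) and after (open) position scaling. Each panel spans the same 3 log2 units around the probe's own mean, so distances can be compared between panels but levels cannot. EEF1B2 is low on the control array and EIF4H is low on the PTK7-labelled array.

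EIF4A2, a paralog of the main helicase EIF4A1, had deposited intensities of 215, 362 and 254, highest on the villin array. It was 1.57-fold higher there than in the control (a log2 difference of 0.66), and none of the 49 other spots in its window, which lies in block 24, row 8, column 58, was as high. After position scaling the value was 0.56, or 1.47-fold, and with the background column 0.40, both short of 1.5-fold. On the PTK7-labelled array it lay at 0.22, at 0.05 after position scaling and at -0.62 with the background column, which is past 1.5-fold in the other direction. The probes of EIF4A1 lay at -0.01 and -0.07 on the villin array and at -0.11 and -0.20 on the other. EIF4A3, a helicase of the exon junction complex rather than of the cap, lay at -0.36 and -0.17.

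The cap-binding factors were close to the control array. EIF4E itself had deposited intensities of 34, 38 and 42 and differences of 0.05 and 0.15. EIF4E2, a homologue that binds the cap without eIF4G, was farthest apart in its group, with 862, 1013 and 1032 and differences of 0.27 and 0.30. Its spot lies in block 24, and after position scaling both values changed sign, to -0.39 and -0.38. The local levels there were 0.30 and 0.29, so the scaling moved EIF4E2 by more than its neighbours' normalised difference. Both probes of the oocyte homologue EIF4E1B were dim, at 2 to 20. EIF4G1, the main scaffold, lay at -0.21 and -0.36, and at -0.02 and -0.04 after position scaling. EIF4G2, which lacks the eIF4E-binding part, lay at 0.28 and 0.29, and at 0.09 and 0.13 after scaling. EIF4G3 lay at -0.06 and -0.14. EIF4ENIF1, a transport and repression partner of eIF4E, lay at -0.02 and -0.00.

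The 16 probes of eIF3, which stand for 13 subunits, ran from -0.49 to 0.60 on the villin array, with 8 above 0 and a median of 0.03. On the PTK7-labelled array they ran from -0.68 to 0.40, with 6 above 0 and a median of -0.13. After position scaling 12 lay above 0 on the villin array, with a median of 0.09, and 9 on the PTK7-labelled array, with a median of 0.01. EIF3I had deposited intensities of 410, 641 and 552, lowest on the control array. It was 1.52-fold higher on the villin array (log2 difference 0.60) and 1.32-fold higher on the PTK7-labelled array, with log2 differences of 0.61 and 0.40 after position scaling. The 48 other spots of its window in block 12 (row 6, column 69) had a median of -0.01 and reached at most 0.20. With the background column the direction turned, to -0.43 on the villin array.

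EIF3E, a subunit at the edge of the complex, had deposited intensities of 3223, 2462 and 1948, lowest on the PTK7-labelled array. It was 1.60-fold lower there than in the control (a log2 difference of -0.68). Its spot lies in block 3, row 1, column 96, and the 28 other spots of its window had a median of -0.32 and a lowest value of -0.83. After position scaling EIF3E lay at -0.16, or 1.11-fold lower. With the background column its direction turned, to 2.47. EIF3D, the subunit with its own cap-binding activity, lay at -0.03 and -0.06.

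A set of 7 eIF3 probes was printed at row 2, column 101 of successive even-numbered blocks, which puts their subunits in order along the slide. On the villin array against the control array the log2 difference was -0.35 for EIF3A in block 2, -0.30 for EIF3B in block 4 and -0.26 for EIF3C in block 6. It was -0.03 for EIF3D in block 8, 0.18 for EIF3F in block 10, 0.47 for EIF3G in block 12 and 0.50 for EIF3H in block 14. In this set the values went up with the block number. Their local levels ran only from -0.14 to 0.06. After position scaling the same probes ran from -0.15 to 0.44, with EIF3G at 0.27 and EIF3H at 0.44. On the PTK7-labelled array the first lay at -0.47 and the last at 0.16, and the highest was EIF3F in block 10 at 0.19. After scaling the first lay at 0.06 and the last at 0.11. Those between ran from -0.13 (EIF3B) to 0.25 (EIF3F) and did not go up with the block number. The other sets of members printed at one row and column did not show such an order. The 8 at row 6, column 69 ran from 0.16 in block 8 to 0.60 in block 12, -0.17 in block 18 and 0.02 in block 22, and the 5 at row 1, column 89 lay between -0.20 and 0.07. The part of subunit and position in this order was not tested. These probes were singled out after their values were seen.

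The factors of start-site recognition lay within 1.5-fold. EIF1, which guards the choice of the start codon, has 2 probes that went opposite ways. The probe in block 22 had deposited intensities of 1967, 2525 and 2500 and differences of 0.41 and 0.38. The probe in block 1 had 2151, 1682 and 1537 and differences of -0.28 and -0.43. After position scaling the pair lay at -0.03 and -0.11 on the villin array and at -0.16 and -0.25 on the PTK7-labelled array. EIF1B, a close homologue, lay at -0.33 and -0.30, and at -0.02 and -0.01 after scaling. EIF1AX lay at -0.20 and -0.12 and EIF1AY at 0.19 and 0.05. EIF1AD, listed here because of its symbol and not as a factor of start-site recognition, lay at -0.18 and -0.11.

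EIF2S1, the alpha subunit of eIF2 that stress kinases phosphorylate, lay at 0.02 and 0.19. EIF2S2, the beta subunit, had deposited intensities of 5667, 4712 and 4450 and differences of -0.17 and -0.25. EIF2S3 had 767, 777 and 547, lowest on the PTK7-labelled array, with differences of 0.07 and -0.43, and -0.05 and -0.27 after position scaling. EIF2A, which can deliver initiator tRNA on its own, lay at 0.07 and 0.13 by one probe and at -0.16 and -0.11 by a dimmer one. The 5 subunits of eIF2B, the exchange factor that recharges eIF2, ran from -0.25 to 0.27 and from -0.41 to 0.26. EIF2B1, the alpha subunit, was highest in both comparisons, with 46, 67 and 63 and differences of 0.27 and 0.26, and with 0.27 and 0.25 after scaling. EIF2B4, the delta subunit, had 971, 801 and 700 and differences of -0.22 and -0.41, which became 0.12 and -0.05.

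EIF5, which triggers GTP hydrolysis on eIF2, lay at 0.16 and -0.11. EIF5B, which joins the subunits, lay at 0.26 in both comparisons, and at -0.02 and -0.15 after scaling. EIF5A, which helps ribosomes through difficult peptide bonds, lay at 0.31 and 0.38 by the dimmer of its probes and at 0.11 and 0.02 by the brighter. EIF5A2 lay at -0.08 and -0.02. EIF6, which keeps free large subunits apart from small ones, lay at 0.15 and -0.07. Of the argonautes, none was 1.5-fold apart, and the 4 probes ran from -0.15 to 0.11 on the villin array and from -0.28 to 0.09 on the PTK7-labelled array. AGO1 was lowest on the former and AGO2, the slicing argonaute, on the latter. After position scaling AGO2 turned from -0.11 and -0.28 to 0.20 and 0.11 and was the highest of the 4 in both comparisons.

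The 9 genes with a pair of probes show how far 2 spots for 1 gene differ on these arrays. EEF1A2, EIF4E1B, EIF3A, EIF3B and EIF2A have a probe with a deposited control intensity of at most 20. The offset shrinks the differences of such dim probes, so these gaps partly reflect it. On the villin array the pair had the same sign for 5 of the 9 genes, with a median gap of 0.20 and a widest gap of 0.69 (EIF1). On the PTK7-labelled array it had the same sign for 3 of the 9, with a median gap of 0.30 and a widest of 0.80. After position scaling the median gaps were 0.08 and 0.09 and the widest 0.20 and 0.30. The pairs with opposite signs were then EEF1A2, EIF2A, EIF4A1 and EIF4E1B on the villin array. On the PTK7-labelled array they were EEF1A2, EIF3A, EIF3F, EIF4E1B and EIF5A. Scaling also narrowed the interquartile range of all members, from -0.18 to 0.18 before to -0.05 to 0.14 after on the villin array. Smaller gaps therefore do not by themselves show that the probes of a gene agree better. Before scaling, the EIF1 gap exceeded the 1.5-fold threshold in both comparisons. For EIF3A the bright probe in block 2 lay at -0.35 and the dim probe in block 19 at 0.19 on the villin array, and at 0.07 and 0.09 after scaling. Probes of near-identical genes, such as EIF1AX and EIF1AY, EEF1A1 and EEF1A2, or EIF3C and EIF3CL, may read each other's transcripts, which was not tested.

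**Figure D4:**
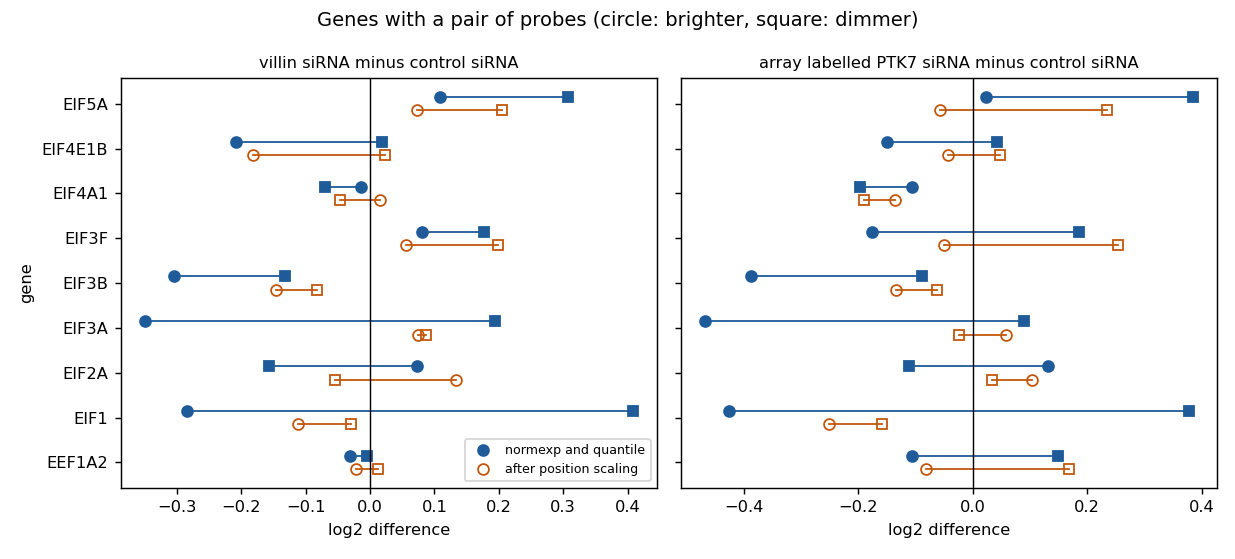
Log2 differences from the control array of the brighter (circle) and dimmer (square) probe of the 9 factor genes with a pair of probes, joined by a line, before (filled) and after (open) position scaling. The median gap between the probes of a gene falls from 0.20 to 0.08 (villin) and from 0.30 to 0.09 (PTK7-labelled). Scaling also narrowed the interquartile range of all members in both comparisons.

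Regulators and neighbouring factors outside the member rule were taken from 4 lists. Of 26 detected probes of regulators of translation factors, 1 was at least 1.5-fold higher on the villin array, against 1.45% of all detected probes. This was DPH5, which makes the diphthamide residue of eEF2. It had deposited intensities of 119, 214 and 198 and a log2 difference of 0.65, which became 0.16 after position scaling. The regulator 1.5-fold lower there was EIF4EBP1, the mTOR-controlled repressor of eIF4E, with 406, 260 and 308 and a difference of -0.59, or -0.22 after scaling. Over all detected probes 0.419% were that much lower. After scaling the single regulator 1.5-fold apart on the villin array was another, RPS6KB2, a kinase of ribosomal protein S6. It went from 0.07 to -0.63, and 1.03% of all detected probes were apart after scaling. Its deposited intensities were 282, 298 and 341, and its spot lies in block 24. No regulator was apart on the PTK7-labelled array, against 1.03% of all detected probes. The median of the regulators was 0.02 and -0.01. None of 16 probes of mRNA-binding partners and termination factors, 10 of mitochondrial translation factors or 21 of cytosolic aminoacyl-tRNA synthetases and their scaffolds was 1.5-fold from the control array on either of the other arrays. With 1.87% and 1.03% of all detected probes apart, lists of these sizes can hold none without differing from the rest. The medians of these lists were 0.00, -0.08 and 0.13 on the villin array and 0.01, -0.09 and 0.07 on the PTK7-labelled array.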

How the data were processed

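Total RNA of the cells was amplified to aRNA and labelled with Cy5, per the labels' protocols. Scanner files hold a median intensity at 635 nm and a background median for each spot, not normalised, per the file headers. The authors' deposited table holds whole-number intensities. Subtracting the blank mean from the spot median and dividing by 1.263, 1.601 or 1.337 gives them on the 3 arrays within 1 unit, so scale, centring and direction are known. Its software is not given in the sources used here.

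Background was the mean of 2680 blank spots after trimming 5% at each end. A probe was detected if it exceeded this by 2 SDs and was not flagged, which gave exactly the probes with a deposited value. The main setting was normexp (offset 50) and quantile normalisation with limma 3.58.1 in R 4.3.3, and log2. Position scaling divided the signal by 2 to the power of the local median log2 deviation of an array from the mean of the 3, before normexp. The normalisation was run on simulated arrays with known folds. The scaling was run on a simulated slide with a gradient equal for bright and dim spots, without normexp or the offset. That simulation could not show how the scaling treats bright spots among dim ones. Symbols came from the platform annotation (20236 probes with 1, none with several and 4224 without), and 9 member symbols were updated through RefSeq (GRCh38.p14). Other steps used pandas 2.3.3 and numpy 2.4.6 under Python 3.11.15, and plots matplotlib 3.10.9.

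Members and lists were chosen with earlier results of these data known. Named were EEF1B2, EIF4H, probes 1.5-fold apart, and in each group the brightest probe and those farthest from the control array. Other members are given with fewer values. With 1 array a group, the number of arrays limits precision.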

Additional observations from a re-analysis of the deposited data

How the results depend on the processing

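Counts of members at least 1.5-fold apart were 3 (3 higher, 0 lower), 3 (1 and 2) and 1 (1 and 0) for villin siRNA against control, PTK7 siRNA against control and villin against PTK7 siRNA. They became 5 (3 and 2), 6 (3 and 3) and 4 (3 and 1) with plain subtraction of the blank mean, and 5 (4 and 1), 5 (2 and 3) and 3 (2 and 1) with the deposited values. Both of these have no offset. With the scanner's background column they were 14 (7 and 7), 23 (15 and 8) and 19 (7 and 12), and the cause was not tested. Median scaling gave 6 (6 and 0), 3 (1 and 2) and 2 (2 and 0), and a 2-fold threshold 1, 1 and 0. No background correction, cyclic loess, position scaling, both other filters, gene means and the members by current symbol (added after seeing the data, also with position scaling) kept each count within 1.5 times. Of the named probes at least 1.5-fold apart, EIF3I (-0.43, villin siRNA against control) and EIF3E (2.47, PTK7 siRNA against control) changed sign, both with the background column. Over the 87 differences of all named probes, 44 changed sign with the background column, 18 of them ending past 1.5-fold, and 22 with position scaling, 8 with median scaling, 2 with cyclic loess and 1 with the deposited values, none of these ending past 1.5-fold. The member medians moved by more than 0.1 in 1 of 36 cases, to 0.05 for PTK7 siRNA against control with the background column. No paired analysis was possible because each group had 1 array. The offset limits what dim probes can show.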
